A study of Rattus norvegicus with 6 samples.

Results

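The expression of 10 genes of macrophage lysozyme, scavenger receptors and Fc receptors was described in cultured rat spinal cord neurons after knockdown of galectin-3 (GAL3, listed as LGALS3). The 10 genes were LYZ2, CD14, FCER1G, FCGR2B, LILRB4, SIGLEC1, MSR1, CD163, MRC1 and CD4. They were picked by name, all 10 were found among the 17648 genes of the expression matrix, and CD4 was set against the other 9. The names were chosen with the values of these same libraries in view, so the differences between the groups are given for these 10 genes as a description, with no test.

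The cells were spinal cord neurons that had been taken from newborn Sprague-Dawley rats and kept in culture for 3 days, with Ara-C added to reduce dividing cells. There were 3 libraries of the Glu + siR-Con group, which received a control transfection, and 3 of the Glu + siR-GAL3 group, which received a small interfering RNA against GAL3. The study's methods and the design text describe exposure of both groups to glutamate, at 10 μM for 1 h and then 16 h without it. The sample labels differ on this point, since they give saline for the siR-Con libraries and glutamate for the siR-GAL3 libraries, and they call the latter a knockout. If the labels are right, glutamate and the knockdown cannot be told apart. The study used a single siRNA against GAL3, and its statistics section describes its data in general as coming from independent repeats of the experiments. The labels do not say which culture each library came from, so the spread between libraries may in part be technical.

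The values are on a linear scale that the authors derived from FPKM, a measure per transcript length. Further steps with tools that are not named were applied, so levels of different genes can be compared only with caution. Values below 0, which FPKM cannot take, occur in the matrix. Counting errors cannot be given because the depth of sequencing is unknown. The targeted gene LGALS3 was 77.4, 54.4 and 62.4 in the siR-Con replicates, in the order of their numbers, and -1.64, 32.3 and 18.5 in the siR-GAL3 replicates, and all values below keep this order. With values below 0 set to 0, its log2 fold change of (value + 1) was -2.91 (standard error 1.20, limma adjusted p = 0.571). The libraries fell into 3 sets, since pairs of the same set held more than 1000 exactly equal values and pairs of different sets at most 264. Replicate 1 of siR-Con and replicate 1 of siR-GAL3 made up the first set. The second contained replicates 2 and 3 of siR-Con with replicate 3 of siR-GAL3. Replicate 2 of siR-GAL3 was alone and lay apart on principal component 1, which held 65.2% of the variance. Among neuron markers, MAP2 lay between 13.1 and 19.0 but the nuclear marker RBFOX3 only between 0.300 and 0.429, and the 11 found summed to between 40.9 and 46.7. Markers of other cell types were abundant. The 8 astrocyte markers summed to between 801.5 and 1069, the 8 oligodendrocyte lineage markers to between 1041 and 1366 and the 15 markers shared by microglia and macrophages to between 133.9 and 190.1.

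Macrophages and microglia are the phagocytes of the nervous system. They bind bacteria, antibodies, modified lipoproteins and dying cells through receptors of several families. Fc receptors bind the constant part of antibodies and signal through tyrosine motifs that activate (ITAM) or inhibit (ITIM) the cell. Scavenger receptors and lectin receptors bind lipoproteins, hemoglobin or sugars. CD163 and MRC1 are known as markers of the macrophages at the borders and vessels of the nervous system. CD4 is best known as the coreceptor of helper T cells, but rat macrophages carry it as well.

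Of the 10 genes, 6 were higher in every siR-GAL3 library than in every siR-Con library, namely LYZ2, FCER1G, MSR1, SIGLEC1, LILRB4 and CD14. CD4 and CD163 were lower in every siR-GAL3 library, while the groups overlapped for MRC1 and FCGR2B. Over all 17648 genes, 9.01% were higher without overlap and 7.86% were lower without overlap. The choice of the genes used this contrast, and nothing is read from the counts. Averaged over the 6 libraries, 6 of the genes reached 1, namely LYZ2, FCER1G, CD163, CD4, MRC1 and FCGR2B. SIGLEC1, LILRB4, MSR1 and CD14 lay below that level. In RNA from a whole culture, fewer cells of a type and less RNA per cell cannot be told apart.

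**Figure D1:**
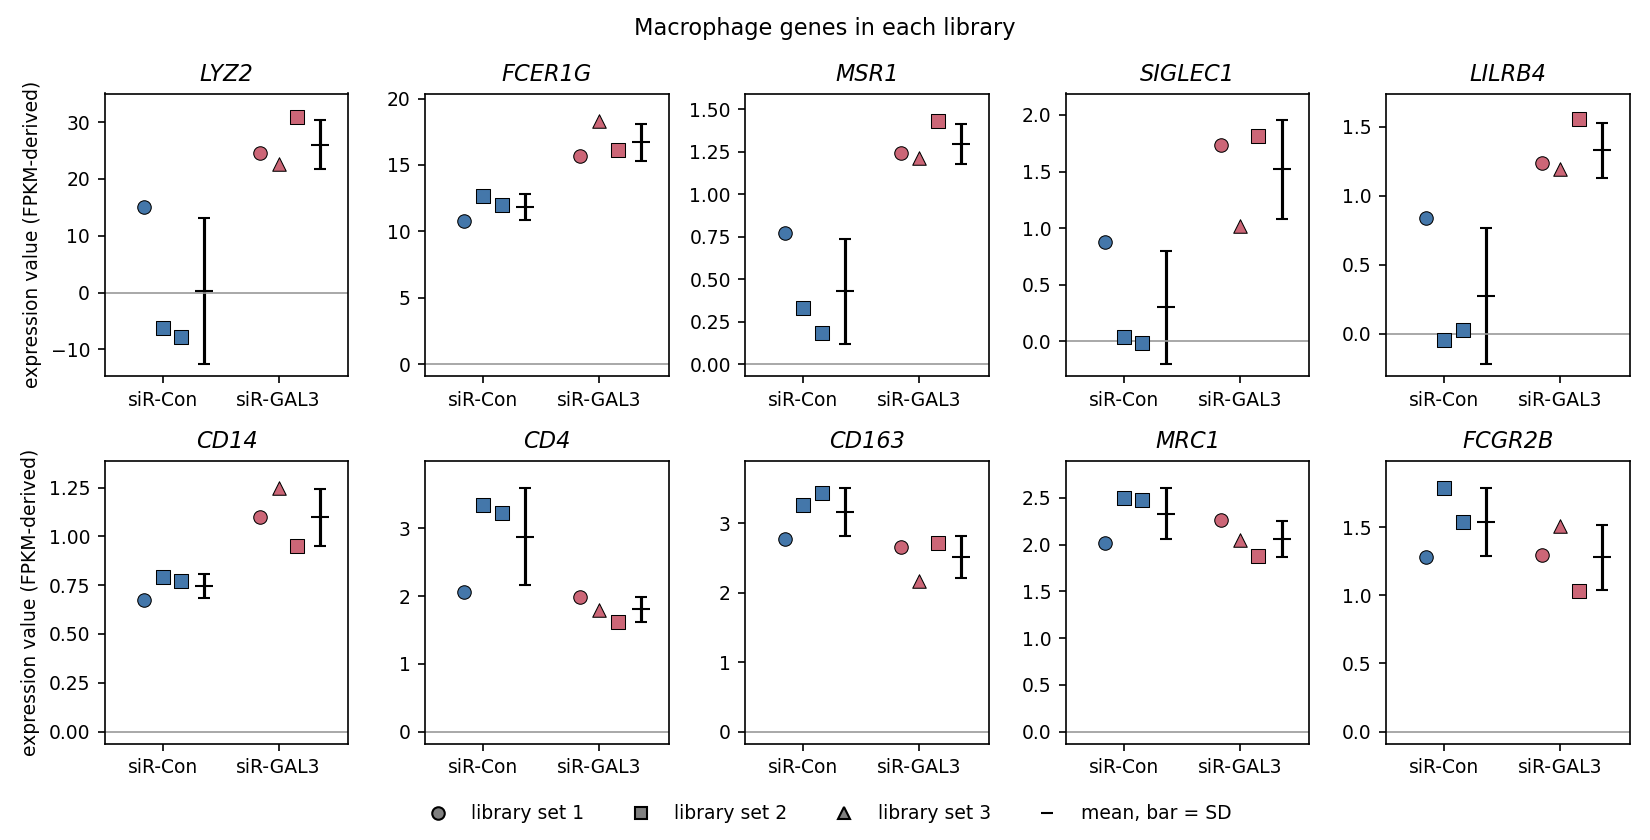
Expression values of the 10 genes (y axis, FPKM-derived linear units) in the 3 siR-Con and the 3 siR-GAL3 libraries (points), with mean and SD beside each group and the marker shape giving the library set. LYZ2, FCER1G, MSR1, SIGLEC1, LILRB4 and CD14 lie higher in siR-GAL3, CD4 and CD163 lie lower, and the groups overlap for MRC1 and FCGR2B.

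LYZ2, the lysozyme that cleaves the bacterial cell wall, had the highest fold change of the 10 genes. Its value was 15.1, -6.30 and -7.91 in siR-Con and 24.5, 22.6 and 30.9 in siR-GAL3. The siR-Con libraries were spread widely, with the libraries of the second set below 0 and replicate 1 closer to the siR-GAL3 libraries than to them. The value of -7.91 in siR-Con replicate 3 was the lowest of that library over all genes. The means were 0.295 ± 12.8 (SD, n = 3) in siR-Con and 26.0 ± 4.32 (SD, n = 3) in siR-GAL3. With values below 0 set to 0, the log2 fold change of (value + 1) was 3.41 (standard error 1.14). This number rests on the floor at 0, and no fold is given. Within the first library set LYZ2 was 15.1 in siR-Con and 24.5 in siR-GAL3.

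CD14, the receptor that hands bacterial lipopolysaccharide to TLR4, was low in all libraries. It was 0.674, 0.790 and 0.771 in siR-Con and 1.10, 1.25 and 0.953 in siR-GAL3. Every siR-GAL3 library lay above every siR-Con library, and the replicates of a group lay close together. The means were 0.745 ± 0.0622 and 1.10 ± 0.146 (SD, n = 3 each), 47.4% higher in siR-GAL3, with a log2 fold change of 0.26 (standard error 0.07).

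Among the Fc receptor genes, FCER1G was the most abundant. It encodes the ITAM-bearing common gamma chain, with which the activating receptors for IgG and IgE assemble. FCER1G was 10.7, 12.7 and 11.99 in siR-Con and 15.7, 18.3 and 16.2 in siR-GAL3. The groups were clearly apart, and unlike LYZ2, siR-Con replicate 1 was the lowest library. The means were 11.8 ± 0.988 and 16.7 ± 1.39 (SD, n = 3 each), 41.6% higher in siR-GAL3, with a log2 fold change of 0.47 (standard error 0.08). The difference was 4.97 units within the first library set and 3.81 units within the second.

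FCGR2B, the inhibitory receptor for IgG, did not follow FCER1G. It was 1.28, 1.78 and 1.53 in siR-Con and 1.30, 1.51 and 1.03 in siR-GAL3. The groups overlapped, since siR-Con replicate 1 lay below 2 of the siR-GAL3 libraries. The log2 fold change was -0.15 (standard error 0.11) and ran from -0.23 without siR-Con replicate 1 to -0.07 without siR-GAL3 replicate 3, and the difference was 0.0146 units in the first library set and -0.628 units in the second. The Fcgr genes are close paralogs, as are LYZ2 and LILRB4 with relatives of their own, and reads could be divided between such copies in a way the deposited values do not show.

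LILRB4, an ITIM-bearing inhibitory receptor of myeloid cells, was 0.843, -0.0469 and 0.0308 in siR-Con. It was 1.24, 1.20 and 1.55 in siR-GAL3. SIGLEC1, known as sialoadhesin, is a sialic acid binding lectin of macrophages and an interferon-inducible gene. It was 0.874, 0.0327 and -0.0126 in siR-Con and 1.73, 1.02 and 1.81 in siR-GAL3. Both genes thus resembled LYZ2 in siR-Con, near or below 0 in replicates 2 and 3 and distinctly above in replicate 1. Their log2 fold changes were 0.91 (standard error 0.25) for LILRB4 and 1.00 (standard error 0.28) for SIGLEC1. With 1 value below 0 in each, no fold is given.

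The scavenger and lectin receptors were divided. MSR1, the class A scavenger receptor for modified lipoproteins, was 0.772, 0.329 and 0.182 in siR-Con and 1.24, 1.22 and 1.43 in siR-GAL3. All siR-GAL3 libraries lay above all siR-Con libraries, and siR-Con replicate 1 was again the highest of its group. The mean was 0.428 ± 0.307 in siR-Con and 1.30 ± 0.117 in siR-GAL3 (SD, n = 3 each), and the log2 fold change was 0.71 (standard error 0.16).

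CD163, the scavenger receptor for hemoglobin bound to haptoglobin, went the other way. It was 2.77, 3.27 and 3.43 in siR-Con and 2.66, 2.17 and 2.72 in siR-GAL3. The groups did not overlap, but siR-Con replicate 1 and siR-GAL3 replicate 3 were nearly level. The means were 3.16 ± 0.343 and 2.52 ± 0.298 (SD, n = 3 each), 20.3% lower in siR-GAL3, with a log2 fold change of -0.24 (standard error 0.09), or -0.15 with the library set as a block. Within the first library set the difference was -0.118 units and within the second -0.634 units.

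MRC1, the mannose receptor, was 2.02, 2.50 and 2.48 in siR-Con and 2.26, 2.05 and 1.87 in siR-GAL3. The groups overlapped because siR-Con replicate 1 lay below siR-GAL3 replicates 1 and 2. The log2 fold change was -0.12 (standard error 0.08) and ran from -0.19 without siR-Con replicate 1 to -0.08 without siR-GAL3 replicate 3. The difference was 0.239 units in the first library set and -0.611 units in the second, so that the sets did not share a direction.

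CD4 was 2.06, 3.34 and 3.24 in siR-Con and 1.99, 1.80 and 1.62 in siR-GAL3. All siR-GAL3 libraries lay below all siR-Con libraries, but siR-Con replicate 1 was far closer to the siR-GAL3 libraries than to the other siR-Con libraries. The means were 2.88 ± 0.711 and 1.80 ± 0.185 (SD, n = 3 each), 37.4% lower in siR-GAL3, with a log2 fold change of -0.45 (standard error 0.15). Within the first library set the difference was -0.0705 units and within the second -1.67 units. Without siR-Con replicate 1 the log2 fold change was -0.62.

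**Figure D2:**
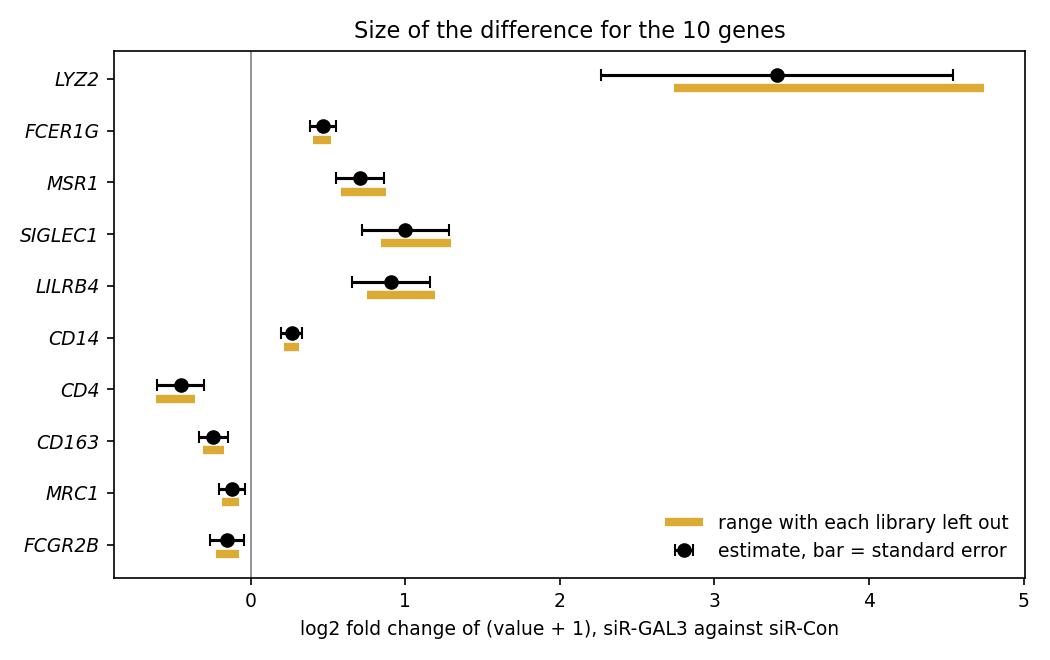
Log2 fold change of (value + 1) in siR-GAL3 against siR-Con for the 10 genes (points, with the standard error as bars) and its range with each library left out in turn (thick lines). The estimates run from 3.41 for LYZ2 to -0.45 for CD4, and the range of each gene stays on 1 side of 0.

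The median log2 fold change of the other 9 genes was 0.47, against -0.45 for CD4 and -1.19e-05 for the median of all 8495 genes whose mean over the libraries was 1 or more. The difference between CD4 and the median of the other 9 genes was -0.92, and it was -0.53 without the genes that hold a value below 0. The log2 fold changes of CD163, FCGR2B and MRC1 were below 0 as well. CD4 could be divided by 6 of the other genes in all libraries, those with no value at or below 0. Relative to FCER1G, CD4 was 0.192, 0.263 and 0.270 in siR-Con and 0.127, 0.0982 and 0.1004 in siR-GAL3. Relative to MRC1 it was 1.02, 1.34 and 1.31 in siR-Con and 0.882, 0.875 and 0.865 in siR-GAL3. CD4 was therefore lower in all siR-GAL3 libraries also when set against MRC1, for which the groups overlapped. The ratio of CD4 to CD163 overlapped between the groups, with a mean of 0.903 ± 0.144 in siR-Con and 0.724 ± 0.117 in siR-GAL3 (SD, n = 3 each).

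**Figure D3:**
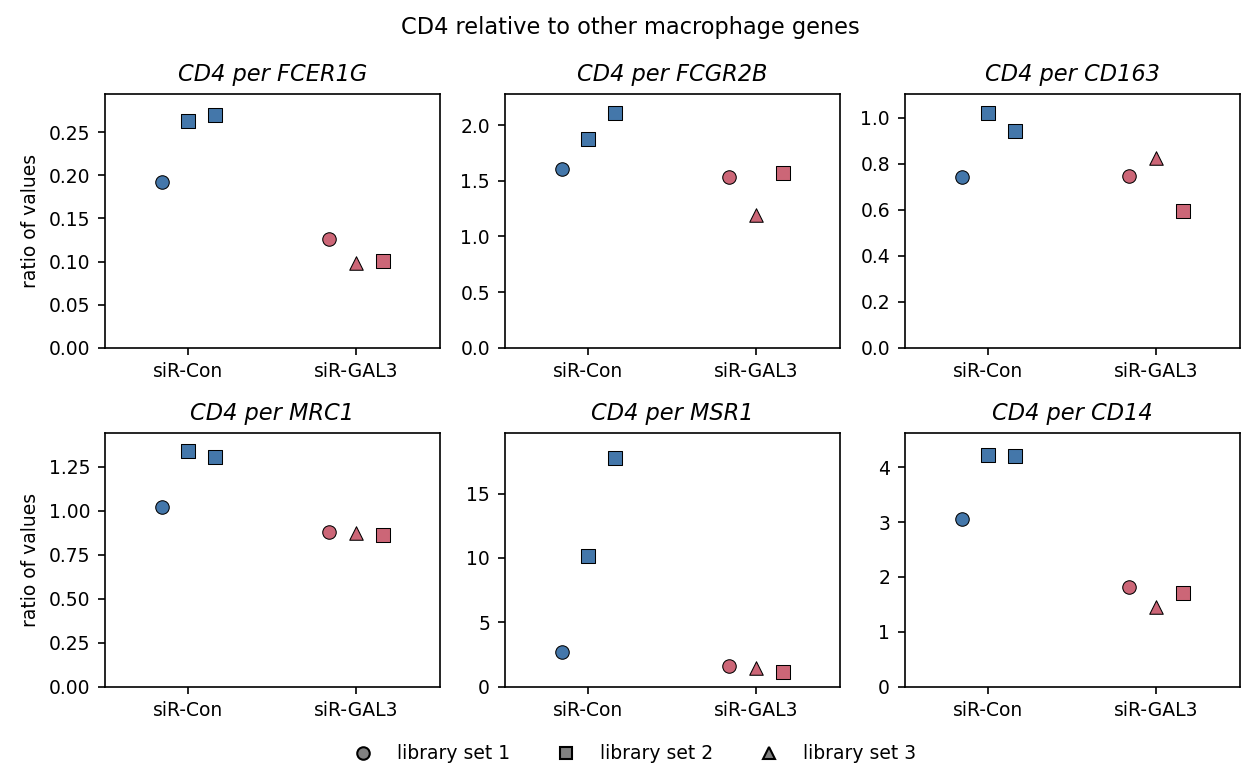
Ratio of the CD4 value to that of 6 other macrophage genes (y axis, no unit) in each library, by group, with the marker shape giving the library set. The siR-GAL3 libraries lie below the siR-Con libraries for FCER1G, FCGR2B, MRC1, MSR1 and CD14, and the groups overlap for CD163.

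The libraries were ordered in opposite ways for these genes. For CD4, CD163, MRC1 and FCGR2B, siR-Con replicates 2 and 3 were the highest of the 6 libraries. For LYZ2, SIGLEC1, LILRB4 and MSR1, the same libraries were the lowest. For 7 of the 10 genes siR-Con replicate 1 lay nearer to the mean of siR-GAL3 than to that of siR-Con replicates 2 and 3, against 37% of the 8495 genes whose mean reached 1. Within both library sets that hold both groups, LYZ2, SIGLEC1, LILRB4, FCER1G, MSR1 and CD14 were higher in siR-GAL3 and CD4 and CD163 were lower.

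The summed level of the markers shared by microglia and macrophages was higher in every siR-GAL3 library. The 15 markers found summed to 133.9, 159.6 and 161.1 in siR-Con and 190.1, 167.2 and 167.3 in siR-GAL3, without overlap. Of the 14 with a mean of at least 1, 12 were higher and 2 lower in siR-GAL3, and the median of their log2 fold changes was 0.26. In limma, 7 of the 14 had an unadjusted p under 0.05, all of them higher, against 4.41% of all genes tested. This count was 4 of 14 without siR-Con replicate 1 and 4 of 14 without siR-Con replicate 3. Those with the smallest p were PTPRC, AIF1 and C1QC. With the library set as a block, PTPRC and AIF1 passed an adjusted p of 0.05 in limma. PTPRC, the leukocyte antigen CD45, was 1.03 ± 0.0523 in siR-Con and 1.73 ± 0.213 in siR-GAL3 (SD, n = 3 each). Among the 15 markers was SPI1, which encodes the macrophage transcription factor PU.1. SPI1, named here for its role and after its values were seen, was 1.15, 1.37 and 1.31 in siR-Con and 1.84, 1.99 and 1.32 in siR-GAL3. This list was chosen with earlier results of these data known, so its counts are a description. The part of these markers in the differences of the 10 genes was not tested. Markers of other cells also differed. The 8 astrocyte markers summed to 927.6 to 1069 in siR-Con and 801.5 to 865.7 in siR-GAL3, and the 7 endothelial and fibroblast markers found summed to 44.1 to 51.5 and 34.0 to 39.1. The sums of neuron and of oligodendrocyte lineage markers overlapped between the groups. Their part in the differences of the 10 genes was not tested either.

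Dividing each gene by the summed markers of its library, a scale chosen after the values were seen, changed which genes overlapped. On this scale the ratio for CD163 was 2.07, 2.05 and 2.13 per 100 units of the markers in siR-Con and 1.40, 1.30 and 1.62 in siR-GAL3. MRC1 was 1.51, 1.56 and 1.54 per 100 units in siR-Con and 1.19, 1.23 and 1.12 in siR-GAL3. For both genes siR-Con replicate 1 now lay with the other siR-Con libraries, and the groups were apart. CD4 was 1.54, 2.09 and 2.01 per 100 units in siR-Con and 1.047, 1.08 and 0.969 in siR-GAL3. FCGR2B also became lower without overlap, so that 4 of the 10 genes were lower, against 24.6% of all genes. LYZ2, FCER1G, LILRB4, MSR1 and CD14 stayed higher without overlap, 5 of the 10 against 2.17% of all genes, and SIGLEC1 overlapped. This scale shifts all genes, since the summed markers were themselves higher in every siR-GAL3 library. The median log2 fold change of the genes tested was -0.15 on it. The choice of the 10 genes used this contrast, so nothing is read from these counts either.

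Promoter sequences were found for LYZ2, LILRB4, CD163, MRC1 and CD14 and not for the other 5 genes. They are shown for LILRB4 and LYZ2, which were higher in siR-GAL3, for CD163, which was lower, and for MRC1, whose groups overlapped. The sequences are from RefSeq, assembly GRCr8, 5′ to 3′ on the strand of the gene, and capitals mark GAGGAA, a core that PU.1 and other ETS factors bind, or its reverse complement TTCCTC. LILRB4 is given by the 208 bases chr1:78853295-78853502 on the minus strand, CD163 by the 227 bases chr4:158770524-158770750 and MRC1 by the 250 bases chr17:82157475-82157724 on the plus strand, and LYZ2 by 30 bases around the match, chr7:54798040-54798069 on the minus strand.
LILRB4: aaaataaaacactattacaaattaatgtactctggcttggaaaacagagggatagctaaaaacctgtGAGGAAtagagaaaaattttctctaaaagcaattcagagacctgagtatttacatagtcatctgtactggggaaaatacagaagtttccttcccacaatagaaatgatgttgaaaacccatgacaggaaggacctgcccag
LYZ2: ctgtcaggaaagGAGGAActtggaggatgc
CD163: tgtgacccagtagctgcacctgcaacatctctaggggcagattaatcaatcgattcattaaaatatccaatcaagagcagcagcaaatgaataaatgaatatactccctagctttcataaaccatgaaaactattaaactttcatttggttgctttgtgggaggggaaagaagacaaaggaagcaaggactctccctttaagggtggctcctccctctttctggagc
MRC1: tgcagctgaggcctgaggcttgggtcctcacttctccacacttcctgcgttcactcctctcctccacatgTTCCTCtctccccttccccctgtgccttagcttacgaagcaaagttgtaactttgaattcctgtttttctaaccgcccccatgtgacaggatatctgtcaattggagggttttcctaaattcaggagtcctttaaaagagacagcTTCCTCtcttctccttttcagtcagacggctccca
In windows of 250 bases before to 50 after the start site, GAGGAA was found on either strand in 4 of the 5 genes, all but CD163, and in 27.6% of 33469 promoters. Counted from the start site, it began at base -183 in LILRB4 and -46 in LYZ2, and MRC1 held it on the other strand at -180 and -35. CD14, whose window is not shown, held it at -140 and -105. A motif of interferon regulatory factors, GAAA and GAAA with 2 bases between them, was in none of the 5 and in 3.92% of all promoters. TTCNNNGAA, a STAT motif, was in none of the 5 and in 8.87%. A match describes these letters only, and no factor binding was measured.

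Other genes of the same pathways were then tested with limma over the 8495 genes. After Benjamini-Hochberg adjustment no gene in limma reached a p under 0.05. When library sets were blocks in limma, 106 genes did, among them LAT2, CD68, CLEC4A3, CLEC4A1, PTPRC and AIF1 of the lists below. Without siR-GAL3 replicate 2, the library that makes up a set of its own, 167 genes did. Without adjustment, 736 genes, 8.66%, had a p under 0.05, of which 375 were higher and 361 lower (4.25% of genes tested) in siR-GAL3. A log2 fold change over 1 in size together with such a p was met by 27 genes, 0.318%. The study's methods name these criteria in the section on public datasets. For sequencing with replicates, its supplement names DESeq and an adjusted p under 0.05, which was not applied here. Over the 9 lists of role and marker genes, 57 genes could be tested. Of these, 22 were higher and 2 were lower at an unadjusted p under 0.05 in limma. Their smallest adjusted p in limma was 0.101. The lists were chosen with earlier results of these data known, so their counts are a description and no independent support.

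Among Fc receptors and the proteins that act on ITAM and ITIM tyrosines, some genes were higher in siR-GAL3 before adjustment and none after it. Of 20 genes listed, 19 were found and 11 tested, and the median of their log2 fold changes was 0.24. At an unadjusted p under 0.05 in limma, 6 were higher and none was lower, and without siR-Con replicate 1 the count at that p was 3 of 11. Among those with the smallest p were the adaptor LAT2 and the tyrosine phosphatase PTPN6. LAT2 was 0.909, 1.09 and 0.857 in siR-Con and 1.59, 1.55 and 1.62 in siR-GAL3, and its log2 fold change was 0.41 (standard error 0.06, limma adjusted p = 0.129). PTPN6, also known as SHP-1, binds ITIMs such as that of LILRB4 and was 2.76 ± 0.261 in siR-Con and 4.001 ± 0.262 in siR-GAL3 (SD, n = 3 each).

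The receptors that assemble with FCER1G were singled out after their values were seen. FCGR3A was 1.81 ± 0.122 in siR-Con and 2.73 ± 0.687 in siR-GAL3 (SD, n = 3 each), with a log2 fold change of 0.39 (limma adjusted p = 0.499). FCGR1A, the high-affinity receptor for IgG, was too low to be tested, at 0.566, 0.458 and 0.275 in siR-Con and 0.968, 0.965 and 0.818 in siR-GAL3. Both were higher in every siR-GAL3 library, as FCER1G was. FCGR2A overlapped between the groups, at 1.09 ± 0.219 in siR-Con and 0.990 ± 0.259 in siR-GAL3 (SD, n = 3 each), as FCGR2B did.

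Other scavenger and phagocytic receptors went both ways, most of them with small differences. Of 20 listed, 18 were found and 9 tested, 3 higher and 6 lower, with a median log2 fold change of -0.06. The sign of this median turned without siR-GAL3 replicate 2, where it was 0.04. At an unadjusted p under 0.05 in limma, 2 of the 9 were higher and 1, STAB1, was lower. CD68, the lysosomal glycoprotein of macrophages, was 9.15 ± 0.412 in siR-Con and 13.8 ± 0.671 in siR-GAL3 (SD, n = 3 each), and its log2 fold change was 0.54 (standard error 0.07, limma adjusted p = 0.101). CXCL16, a chemokine that also binds oxidized lipoprotein, was 2.25 ± 0.384 and 3.65 ± 0.594 (SD, n = 3 each). STAB1, an endocytic receptor of tissue macrophages, was 3.68, 4.93 and 5.40 in siR-Con and 3.07, 2.64 and 2.04 in siR-GAL3, with a log2 fold change of -0.66 (standard error 0.15, limma adjusted p = 0.262). Like CD4 and CD163, STAB1 was highest in siR-Con replicates 2 and 3.

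Of 22 siglecs, C-type lectins and paired receptors, all were found and 8 were tested, with a median log2 fold change of 0.11. At an unadjusted p under 0.05 in limma, 3 were higher and 1 was lower. CLEC4A3 and CLEC4A1, C-type lectins of myeloid cells, were the genes with the smallest p. CLEC4A3 was 1.91 ± 0.250 in siR-Con and 3.21 ± 0.236 in siR-GAL3 (SD, n = 3 each). CLEC4A1 was 1.12 ± 0.0737 and 1.73 ± 0.134 (SD, n = 3 each). MRC2, the collagen-binding relative of MRC1, was 2.31 ± 0.0404 in siR-Con and 1.80 ± 0.112 in siR-GAL3 (SD, n = 3 each), and its log2 fold change was -0.24 (limma adjusted p = 0.324).

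For the lipopolysaccharide receptor pathway around CD14, 19 of 22 genes were found and 8 tested, with a median log2 fold change of 0.01. At an unadjusted p under 0.05 in limma 2 were higher, CD180 and NFKBIA, and the count was 1 when any library other than siR-GAL3 replicate 3 was left out, as it was with library sets as blocks. CD180, a relative of TLR4, was 1.26 ± 0.225 in siR-Con and 1.91 ± 0.0996 in siR-GAL3 (SD, n = 3 each). NFKBIA, the inhibitor of NF-κB, was 4.94 ± 0.320 and 6.07 ± 0.868 (SD, n = 3 each). The adaptor TRAF6 came next by p, at 1.16 ± 0.0323 and 0.899 ± 0.351 (SD, n = 3 each). TLR4 itself, named for its role, was low, at 0.198 ± 0.0468 in siR-Con and 0.249 ± 0.0450 in siR-GAL3 (SD, n = 3 each).

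Few of the other lysozyme and antimicrobial genes were expressed. Of 16 listed, 12 were found, 9 of these were under 0.1 in every library, and 2 were tested. LCN2, which binds bacterial iron carriers, was 11.4, -6.88 and -7.57 in siR-Con and 19.6, 22.9 and 25.8 in siR-GAL3. Its log2 fold change of 3.35 rests on the floor at 0, as that of LYZ2 does. It was the gene most like LYZ2 over the 6 libraries (Pearson r = 0.998 on log2 of value + 1), followed by BST2 (r = 0.986) and SERPING1 (r = 0.985). The genes most like CD4 were ZFP207 (r = 0.993), SELENOP (r = 0.992) and MBOAT2 (r = 0.991). SELENOP, a secreted selenium carrier, was 65.8, 94.5 and 90.4 in siR-Con and 61.0, 60.0 and 51.5 in siR-GAL3. All these genes share the same 6 libraries and their sets, and the correlations are a description. LYZ2, LCN2 and BST2 were below 0 in siR-Con replicates 2 and 3 and were set to 0 there. The correlations of LCN2 and BST2 with LYZ2 thus rest in part on the floor at 0. SLC11A1, a metal transporter of phagosomes, was 3.91 ± 0.382 in siR-Con and 4.57 ± 0.497 in siR-GAL3 (SD, n = 3 each), with an unadjusted p of 0.0924 in limma.

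Genes of T cells, which also carry CD4, were low. Of 15 T cell genes, 13 were found, none had a mean of at least 1, and 11 of the 13 were under 0.1 in every library. CD3G, a chain of the T cell receptor complex, did not exceed 0.0112. The 13 genes summed to between 0.319 and 0.408 in siR-Con and between 0.554 and 0.721 in siR-GAL3, against 1.62 to 3.34 for CD4 alone. The genes above 0.1 were CD8A, at 0.0726 to 0.181 in siR-Con and 0.251 to 0.357 in siR-GAL3, and CD8B, at 0.0916 to 0.153 and 0.114 to 0.199. The part of T cells in the CD4 values was not tested.

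The markers of border and tissue macrophages other than the 10 genes did not move together. Of 12 listed, 10 were found and 5 tested, with a median log2 fold change of -0.05 that changed sign when single libraries were left out (lowest -0.12 without siR-GAL3 replicate 2, highest 0.03 without siR-GAL3 replicate 3). STAB1 was lower and FOLR2, a folate receptor of tissue macrophages, was higher at an unadjusted p under 0.05 in limma, and 1 of 5 was at that p without siR-Con replicate 1, siR-Con replicate 2 or siR-GAL3 replicate 3. FOLR2 was 2.95 ± 0.188 in siR-Con and 3.73 ± 0.482 in siR-GAL3 (SD, n = 3 each). GAS6, a ligand of phagocytic receptors that other cells make too, was 20.8 ± 0.165 and 20.1 ± 1.52 (SD, n = 3 each). Of 12 monocyte and neutrophil markers, 9 were found and 5 of these were under 0.1 in every library. VCAN, which other cells express as well, was the only one tested, at 7.97 ± 0.414 in siR-Con and 6.01 ± 2.51 in siR-GAL3 (SD, n = 3 each).

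**Figure D4:**
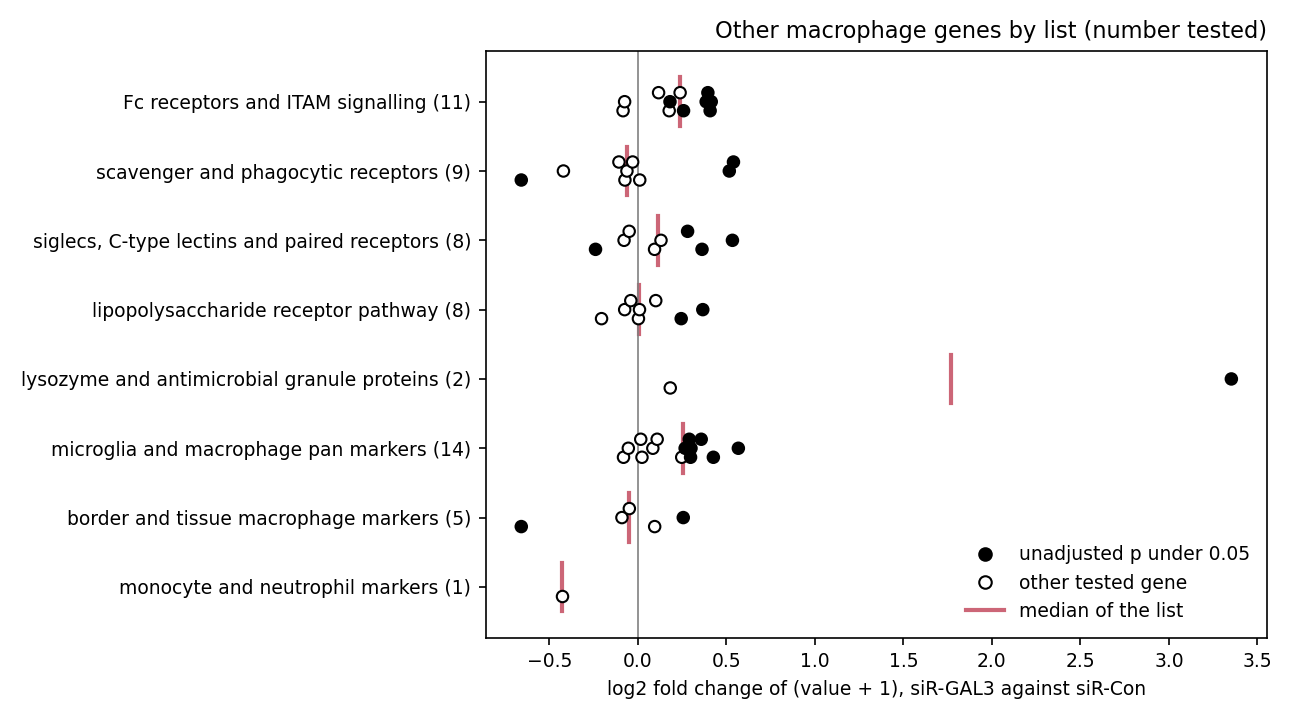
Log2 fold change of (value + 1) in siR-GAL3 against siR-Con for the tested genes of 8 lists (points, filled where the unadjusted limma p is under 0.05), with the median of each list as a line and the number of genes in brackets. Fc receptor and pan marker genes lie mostly above 0, with medians of 0.24 and 0.26, and LCN2 lies farthest out at 3.35, a value that rests on the floor at 0.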

How the data were processed

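RNA of 6 libraries was sequenced, and the groups were taken from the sample titles. The authors mapped the reads with STAR, counted them per gene with HTSeq, computed FPKM, and applied steps against batch effects, for standardization and against differences within groups, with tools that are not named. The genome build is not given in the sources used here. The deposited values are therefore linear expression values derived from FPKM, and 3.86% of them were below 0. The test was limma 3.58.1 (R 4.3.3), with an intensity trend, on log2(value + 1) of the 8495 genes whose mean was at least 1, after values below 0 had been set to 0, and it was tested on simulated data. P-values are two-sided and adjusted by Benjamini-Hochberg. The fold changes of the 10 genes come from the same fit without the filter on low values. The pseudocount of 1 makes fold changes of low genes too small. Library sets were found from more than 1000 exactly equal values. The genes, the lists and the alternatives were chosen with earlier results of these data known. Besides the 10 genes, the 3 genes with the smallest p in each list and the 3 most like CD4 and LYZ2 were named, except 1 that is not reported here. P-values measure the spread between these libraries, whose cultures the labels do not name. Alternatives changed the pseudocount, filter, scaling, trend, blocks and libraries. Matching of same-numbered replicates was checked by the correlation of their deviations from the group means. Protein sequences were not analysed here. Sequences and motifs were read with Python 3.11.15.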

Additional observations from a re-analysis of the deposited data

How the results depend on the processing

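The log2 fold change of each of the 10 genes kept its sign in every alternative that gave one. With each library left out in turn, 6 were higher without overlap. Leaving out a library cannot make groups overlap that were apart. Such counts can therefore only stay or rise, and nothing is read from them. The number of genes at an unadjusted p under 0.05, 736, was 1623 with no filter, 260 with a mean of at least 5, 1174 when library sets were blocks and 362 to 1381 with single libraries left out, the highest without siR-GAL3 replicate 2. The number with an adjusted p under 0.05, which was 0, was 106 when library sets were blocks and 0 to 167 with single libraries left out. Of the 57 listed genes, 6 passed with the set block (AIF1, CD68, CLEC4A1, CLEC4A3, LAT2 and PTPRC) and 8 without siR-GAL3 replicate 2, which the block also takes out of the comparison. A log2 fold change over 1 in size with an unadjusted p under 0.05 in limma was met by 27 genes. This number became 6 with a mean of at least 5 and 15 without genes that hold a value below 0. It was 401 on values not log-transformed, where the threshold is 1 unit and no log2 medians exist.

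With a mean of at least 5, 2 of the 10 genes remained, both higher and 0 lower, and CD4 gave no value. Without genes that hold a value below 0, 3 of 7 were higher, and CD4 differed from the others by -0.53 in place of -0.92. Without siR-Con replicate 1, 4 were lower in place of 2, and 2 to 4 over all libraries left out. Relative to the summed pan markers 4 were lower. The latter, and leaving out siR-Con replicate 1 and siR-GAL3 replicate 2 together (1486 genes at an unadjusted p under 0.05, 271 adjusted, 4 of the 10 genes lower, border macrophage median -0.198), were chosen after seeing the data.

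List medians moved by more than the spread between libraries in these cases. With a mean of at least 5 they were 0.0769 for the Fc receptor list, 0.0258 for lectins, 0.0846 for the lipopolysaccharide pathway, 0.108 for pan markers and 3.35 for lysozyme genes. The lysozyme list, with 2 genes and a median of 1.77, was 2.88 at a pseudocount of 0.1, -0.00348 with no filter and 0.183 without values below 0. With no filter the monocyte list was 0.00391 and 3 T cell genes had an unadjusted p under 0.05, against 0 of none tested. The scavenger list was 0.0428 with the set block and -0.140 to 0.0422 with single libraries left out, and the Fc receptor list 0.165 to 0.320.

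The border macrophage list ranged from -0.119 to 0.0304 with single libraries left out, within the spread between libraries.

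Same-numbered replicates did not deviate together (correlations of -0.17, -0.0699 and 0.0441), although replicate 1 of both groups shared a library set, as did replicate 3. The siR-Con replicates 1, 2 and 3 correlated best with siR-GAL3 replicates 2, 1 and 1. With 3 libraries per group and siR-GAL3 replicate 2 lying apart, this check cannot decide whether the replicates are matched. With the replicate block 6 genes had an adjusted p under 0.05, none of them in the lists, and 4 of 11 Fc receptor genes and 1 of 8 lipopolysaccharide pathway genes an unadjusted p under 0.05. Unknown depth and values below 0 limit all results on low genes.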

Other observations

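Genes that mark cells other than phagocytes had limma adjusted p-values of at least 0.233, so that none of those named here passed. Among endothelial and fibroblast markers, the collagen genes COL3A1 and COL1A1 were lower in every siR-GAL3 library. COL3A1 was 19.2 ± 2.07 in siR-Con and 13.2 ± 1.49 in siR-GAL3 (SD, n = 3 each), and COL1A1 was 19.2 ± 1.70 and 14.1 ± 1.86. PDGFRB, a receptor of pericytes and fibroblasts, was 1.69 ± 0.240 and 1.18 ± 0.0927. Of the 8 astrocyte markers, 4 were lower at an unadjusted p under 0.05 in limma and none was higher. GFAP, the intermediate filament of astrocytes, was 655.4 ± 94.6 in siR-Con and 523.7 ± 9.35 in siR-GAL3, and ALDH1L1 was 3.58 ± 0.226 and 2.85 ± 0.364. The glutamate transporter SLC1A2 overlapped between the groups, at 14.9 ± 2.09 and 10.7 ± 1.81. Of the 6 neuron markers tested, STMN2, a growth cone protein, and SYT1 were higher in every siR-GAL3 library. STMN2 was 0.822 ± 0.137 in siR-Con and 1.29 ± 0.184 in siR-GAL3, and SYT1 was 1.71 ± 0.134 and 2.07 ± 0.280. TUBB3 overlapped between the groups, at 4.86 ± 0.468 and 4.397 ± 0.322. No oligodendrocyte lineage marker had an unadjusted p under 0.05 in limma, with PDGFRA at 1.49 ± 0.124 and 1.12 ± 0.384, MOG at 3.74 ± 0.375 and 4.38 ± 0.535, and MBP at 656.1 ± 31.6 and 769.9 ± 145.1.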
